A study of Rattus norvegicus and Mus musculus with 251 samples.

Results

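The collagen genes were taken from the mouse raw count table as the protein-coding genes whose symbol is Col, a number, the letter a and a number, as in Col1a1. The rule, which used no measured value, found 44 of the 21519 protein-coding genes in the table. By the structure of their proteins they comprised 11 fibrillar collagens, 6 basement membrane network collagens, 6 beaded filament collagens, 1 anchoring fibril collagen and 3 short-chain network collagens. The others were 9 fibril-associated collagens (FACITs), 4 transmembrane collagens, 2 multiplexins and 2 members of no listed class (Col26a1 and Col28a1).

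Total RNA was sequenced from 0.5 mm punches of prefrontal cortex (PFC) and nucleus accumbens (NAc) of C57BL/6J mice of both sexes that had saline or morphine solution to drink. The 62 mouse libraries were labelled Sal (6 PFC, 7 NAc), Chronic mor (8 PFC, 8 NAc), Mor + 24h (9 PFC, 9 NAc) and Mor + 2W (7 PFC, 8 NAc), and every group held 3 or 4 female and 3 to 5 male libraries. The labels give no genotype beyond the strain, no age and no morphine concentration, and they do not say whether each number is a separate animal, so the p-values measure the spread between these samples. They call the cells neurons, whereas 10 of 10 endothelial, 6 of 6 oligodendrocyte and 5 of 5 microglial markers had counts in every library of both regions, as in whole tissue.

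Collagens are secreted or membrane proteins in which long runs of the triplet glycine-X-Y wind chains into a helical trimer. Fibrillar collagens such as types I and III give tensile strength to connective tissue, and type IV collagen forms the sheet beneath the endothelium of blood vessels. In the brain, most fibrillar collagen lies in the meninges and around vessels, while several transmembrane and fibril-associated collagens are made by neurons.

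The glycine triplets are what makes a gene of this family recognisable, so the start of the longest uninterrupted run in the coding sequence is shown for 1 gene of each of the classes on which the results below turn. The sequences are 54 bases from mouse GRCm38 with GENCODE M21 transcripts, 5′ to 3′ on the coding strand. Capitals mark the glycine codon, GGN, at the head of each of the 6 triplets.
Col1a1: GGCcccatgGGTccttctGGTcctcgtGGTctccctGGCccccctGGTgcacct
Col4a1: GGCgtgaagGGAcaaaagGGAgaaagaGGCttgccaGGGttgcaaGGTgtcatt
Col6a1: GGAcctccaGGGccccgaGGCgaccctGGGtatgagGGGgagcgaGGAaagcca
Col25a1: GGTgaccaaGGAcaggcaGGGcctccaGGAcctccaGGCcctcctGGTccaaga
The Col1a1 stretch runs on chromosome 11, plus strand, from base 94939451 in exon 6 to base 94939741 in exon 7. The Col4a1 stretch lies on chromosome 8, minus strand, from base 11267614 in exon 2 to base 11247060 in exon 3. That of Col6a1 lies on chromosome 10, minus strand, from base 76720996 in exon 8 to base 76719659 in exon 9, and that of Col25a1 lies within exon 9 on chromosome 3, plus strand, bases 130476369 to 130476422. All of these stretches are coding exon sequence.

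The uninterrupted run was 338 triplets long in Col1a1, 87 in Col6a1 and 40 in both Col4a1 and Col25a1. Over the 44 members the longest run ranged from 23 to 344 triplets with a median of 58.5. The 11 fibrillar collagens had 216 to 344 triplets, and every other member had a shorter run. Glycine took 26.8% of the 1453 codons of Col1a1, 28.6% of the 1669 codons of Col4a1, 15.3% of the 1025 codons of Col6a1 and 26.1% of the 666 codons of Col25a1.

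Many members also lie beside each other in the genome: 15 of the 44 formed 8 neighbouring pairs no more than 100000 bases apart. The type IV genes lie head to head, Col4a1 with Col4a2 on chromosome 8, Col4a4 with Col4a3 on chromosome 1 and Col4a6 with Col4a5 on chromosome X. The first of these pairs shares 22 bases, and the starts of the other 2 pairs are 71 and 1308 bases apart. Col6a2 and Col6a1 lie 85161 bases apart on the same strand of chromosome 10. Col3a1 and Col5a2 lie tail to tail on chromosome 1. Of the 44 members, 31 overlapped no exon of another gene, and 6.07% of exon bases was the largest overlap; since the sources used here do not say whether counting used strand, counts at such overlaps are uncertain.

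Reads counted to genes ranged from 5182601 to 43963295 per library, with medians of 29999922 in PFC and 32159518 in NAc. Several libraries stood apart before any comparison. The PFC library numbered 10 (Mor + 2W) was the shallowest, had 21.1% unaligned reads and held 0 counts for 31 members. PFC number 13 had the largest share of reads outside genes, 8.3%. The PFC library numbered 31 (Chronic mor) held 3528 CPM of 8 choroid plexus markers (CPM is a count scaled to the reads counted to genes in its library), where the PFC median was 10.9 CPM. NAc number 24 (Mor + 24h) held 594 CPM of the cortical neuron gene Slc17a7. Of the gene Gm42418, PFC number 13 held 66284 CPM and PFC number 10 held 14448 CPM, where the other PFC libraries held 609 to 4272 CPM. NAc number 13 held 13858 CPM of Gm42418 and was not set apart. Both libraries numbered 27 (Chronic mor) are labelled female but held transcripts of Y-linked genes and at most 1.02 CPM of Xist (here without the TMM factor). These 6 libraries were left out together as an alternative. The NAc libraries numbered 6 (Sal) and 25 (Chronic mor) held 149.6 and 182.5 CPM of 6 striatal neuron markers, under the highest PFC value of 266.0 CPM and far under the NAc median of 2093 CPM, and they formed a second alternative.

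Collagen RNA was measured at low to moderate level, and the leading members differed between the regions. Levels of different genes are compared here as RPKM, the CPM of a gene divided by the length of its exons in kilobases. In PFC the highest median RPKM belonged to the basement membrane genes Col4a2 (5.88) and Col4a1 (4.52), followed by the FACIT genes Col9a2 (3.47) and Col9a3 (3.02), chains of type IX collagen, and by Col6a1 (3.01). Col4a2 exceeded Col4a1 in 29 of 30 PFC libraries, Col4a1 exceeded Col9a2 in 23, and Col9a2 exceeded Col9a3 in 20. Col9a3 and Col6a1 could not be placed in order, since Col9a3 was higher in 13 of 30.

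In NAc the order was led by Col6a1, a chain of the beaded filaments of type VI collagen, with a median of 24.6 RPKM. Next came Col25a1, a transmembrane collagen made by neurons, at 7.46 RPKM, then Col4a2 at 4.90, Col9a3 at 4.33 and Col9a2 at 3.89. Col6a1 exceeded Col25a1 in 26 of 32 NAc libraries, Col25a1 exceeded Col4a2 in 26, and Col4a2 exceeded Col9a3 in 26. Col9a3 exceeded Col9a2 in 20 of 32.

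At the low end, 14 members in PFC and 10 in NAc had a median of at least 1 RPKM, and 13 in each region had a median under 1 CPM. Col10a1, a network collagen of growth plate cartilage, had 0 counts in 18 PFC and 18 NAc libraries and was the single member that did not pass the filter on low counts, so 43 members were tested in every comparison. In PFC 31 members had at least 1 library at 0, which fell to 8 members without the library numbered 10.

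**Figure D1:**
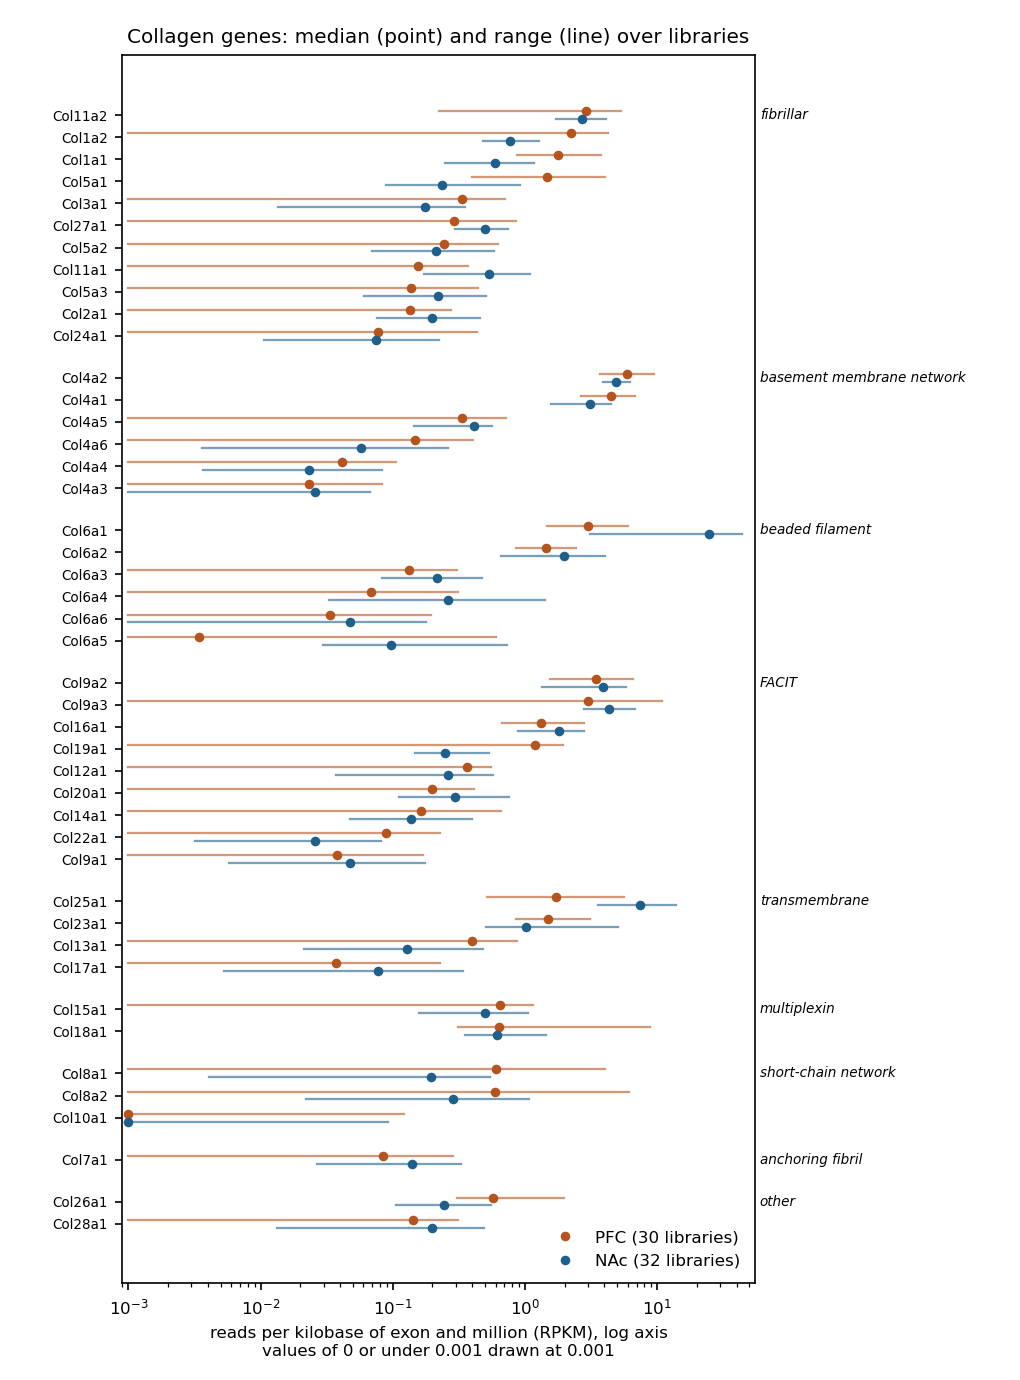
Level of each collagen gene, ordered by class, in PFC and NAc. The horizontal axis is RPKM on a log axis, points are medians over 30 PFC or 32 NAc libraries and lines run from the lowest to the highest library. Col6a1 reaches a median of 24.6 RPKM in NAc and 3.01 in PFC, while Col4a1 and Col4a2 lead in PFC.

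Summed over members, beaded filament collagens made up 40.6% of all collagen RPKM in the median NAc library (range 9.42% to 58.9%) and 11.5% in the median PFC library (6.23% to 19.7%). Most of the NAc share came from Col6a1 alone, with a median of 24.6 RPKM where the class sum had a median of 27.3. In NAc the medians of Col6a2 and Col6a3 were 1.98 and 0.22 RPKM, and those of Col6a4, Col6a5 and Col6a6 were 0.26, 0.098 and 0.048. Basement membrane collagens made up 25.2% in PFC (18.5% to 31.3%) and 13.7% in NAc (8.90% to 17.2%). The fibrillar class made up 22.7% in PFC (8.19% to 27.9%) and 9.85% in NAc (7.34% to 16.5%). For the basement membrane class the regional ranges did not overlap, while for the other classes named here they did. The summed RPKM of all 44 members had a median of 42.5 in PFC and 61.5 in NAc.

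The contrast of the regions asked how the collagens of an accumbens punch differ from those of a cortical punch, whatever the treatment. Of 43 members, 31 differed at an adjusted p under 0.05 by edgeR's quasi-likelihood test, 15 higher and 16 lower in NAc. That share lies close to the background, since 66.2% of all 19266 genes tested were called in this contrast. No member had separate ranges in the 2 regions, where 4.41% of all genes did (6.37% without the 6 libraries that stood apart, again with no member). In tissue punches, fewer cells of a type and less RNA per cell cannot be told apart.

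Of the 6 beaded filament genes, 5 were called and all 5 were higher in NAc, where 66.2% of all genes were called in either direction. Col6a1 measured 6.45, 13.2 and 26.5 CPM (lowest, median and highest of 30 libraries) in PFC and 13.5, 107.8 and 193.5 CPM in NAc (32 libraries). Most NAc libraries lay above every PFC library, but 4 NAc libraries, numbered 6, 23, 25 and 31, fell inside the PFC range. The log2 fold change of NAc over PFC was 2.79 with a standard error (SE) of 0.22 (adjusted p = 9.8e-16). Col6a2, the partner chain of Col6a1, measured 7.17, 12.1 and 20.3 CPM in PFC and 5.46, 16.5 and 33.6 CPM in NAc. These ranges overlapped over most of their length, and the log2 fold change was 0.55 ± 0.13 (SE). Col6a4, a further chain of type VI collagen, had medians of 0.580 CPM in PFC and 2.25 CPM in NAc, with a log2 fold change of 2.08 ± 0.36.

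Other members that rose towards NAc were of several classes. Col25a1 measured 6.74, 22.2 and 72.9 CPM in PFC and 46.1, 96.6 and 180.5 CPM in NAc. Its ranges overlapped between 46.1 and 72.9 CPM, and its log2 fold change was 1.91 ± 0.14 (adjusted p = 2.3e-17). The cartilage-type fibrillar gene Col11a1 had medians of 1.98 and 6.83 CPM in PFC and NAc, with a log2 fold change of 1.89 ± 0.19. For Col2a1, the main collagen of cartilage, the medians were 1.24 and 1.83 CPM and the log2 fold change was 0.87 ± 0.24.

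Among members lower in NAc, the fibrillar Col5a1, which regulates the thickness of type I fibrils, had the lowest log2 fold change of the 43. It measured 3.36, 12.6 and 34.5 CPM in PFC and 0.758, 2.02 and 7.81 CPM in NAc, a log2 fold change of -2.67 ± 0.17 (adjusted p = 2.8e-20). Only the upper end of the NAc range reached the PFC values. Col19a1, a FACIT of neurons, had medians of 8.22 and 1.72 CPM (log2 fold change -2.09 ± 0.18).

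The type I chains were also lower in NAc. Col1a1 measured 5.74, 11.8 and 24.7 CPM in PFC and 1.64, 3.87 and 7.71 CPM in NAc, with a log2 fold change of -1.69 ± 0.13 (adjusted p = 1.2e-16). Col1a2 measured 0, 27.8 and 52.9 CPM in PFC and 6.01, 9.68 and 15.9 CPM in NAc (-1.42 ± 0.14), and its PFC value of 0 came from the library numbered 10. Col3a1, which forms type III fibrils in soft tissue and vessel walls, had medians of 3.31 and 1.72 CPM (-0.96 ± 0.20). The short-chain network gene Col8a1 had medians of 4.77 and 1.53 CPM (-1.37 ± 0.26).

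Of the 6 basement membrane genes, 4 were called and all 4 were lower in NAc, a share of the class near the background of 66.2%. Col4a1 measured 19.7, 33.8 and 51.3 CPM in PFC and 11.7, 23.4 and 33.3 CPM in NAc, with a log2 fold change of -0.56 ± 0.08. Col4a2 measured 24.7, 38.9 and 62.5 CPM in PFC and 25.6, 32.4 and 41.7 CPM in NAc, with a log2 fold change of -0.28 ± 0.07. Both chains overlapped widely between regions. The low-level chains Col4a6 (medians 1.17 and 0.458 CPM, log2 fold change -1.11 ± 0.26) and Col4a4 (medians 0.436 and 0.246 CPM, -0.85 ± 0.27) were the other 2. Col18a1, a multiplexin of basement membranes and the precursor of endostatin, did not pass the test, with medians of 4.48 and 4.35 CPM and a log2 fold change of -0.36 ± 0.18 (adjusted p = 0.066). It was called without any 1 of 5 libraries (PFC 8, 9 and 26, NAc 2 and 24), with adjusted p from 0.0166 to 0.0455. In the other 57 such fits it was not called, with log2 fold changes from -0.38 to -0.066 and adjusted p from 0.0562 to 0.683. The highest PFC value of Col18a1, 62.6 CPM, belonged to the library numbered 10.

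**Figure D2:**
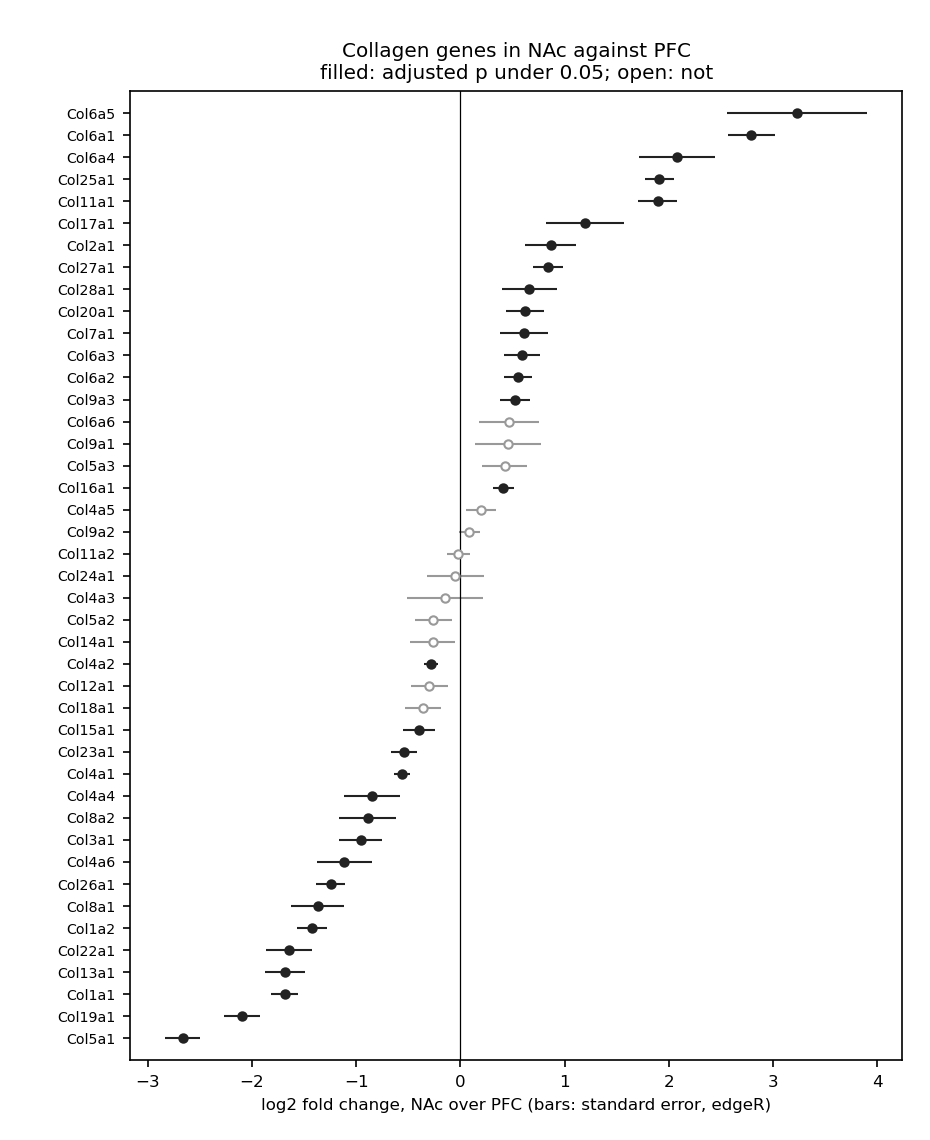
Difference of each of the 43 tested collagen genes between the regions. The horizontal axis is the log2 fold change of NAc over PFC, bars are the standard error from edgeR, and filled points have an adjusted p under 0.05. Col6a1 lies at 2.79, Col25a1 at 1.91, Col1a1 at -1.69 and Col5a1 at -2.67.

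Markers of other cell types differed between the regions with the collagens. The 18 meningeal fibroblast markers, none of them a collagen, summed to 189.1 to 523.4 CPM in PFC and 47.4 to 144.5 CPM in NAc, without overlap, and all 18 were called lower in NAc (median log2 fold change -2.14). Of these, 16 had counts in every library of each region and none was at 0 throughout. All 10 endothelial and all 9 mural markers were also called lower in NAc, with median log2 fold changes of -0.88 and -0.96. The 6 striatal neuron markers were called higher, with a median of 4.42. With the meningeal marker score as a covariate, 9 of 43 members were called between the regions (9 of the 31), and the share of all genes called fell as well, from 66.2% to 20.8%. Of these, Col6a1, Col6a2, Col6a4, Col9a3 and Col25a1 were higher in NAc, and Col5a1, Col19a1, Col22a1 and Col26a1 lower. In that fit the log2 fold change of Col1a1 was -0.34 (adjusted p = 0.51), that of Col1a2 was -0.33 (adjusted p = 0.596), and those of Col3a1 and Col8a1 were 0.65 and 0.71, turned in sign and not called. Because the marker sums of the regions do not overlap, region and meningeal markers cannot be told apart there. With the endothelial and mural score as a covariate 18 members were called, 17 of them among the 31, where 45% of all genes were.

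Within a region, the punches varied in meningeal content, and Col1a1 varied with it in both regions. Each relation below is a correlation of log2 CPM of a gene with the log2 of the summed CPM of a marker list over libraries, tested by permutation and adjusted over the 120 relations computed (10 genes, 6 lists, 2 regions). Col1a1 rose with the meningeal markers in PFC (Pearson r = 0.589, Spearman rho = 0.595, adjusted p = 0.00732 and 0.0092, n = 30) and in NAc (r = 0.525, rho = 0.549, adjusted p = 0.0168 and 0.0146, n = 32). Without the 2 libraries farthest from the median of the markers, r was 0.471 in PFC and 0.556 in NAc. For Col1a2 the NAc relation was of like size (r = 0.632, rho = 0.64, adjusted p = 0.0015 and 0.0045, n = 32, and r = 0.643 without the 2 farthest). In PFC r was 0.0715 (adjusted p = 0.791) with a rho of 0.616 (adjusted p = 0.00789, n = 30), and r turned to -0.0328 without the 2 farthest. The library numbered 10, at 0 counts of Col1a2, set that low r: without it alone r was 0.8 and rho 0.734 (n = 29). Col3a1 followed the markers in NAc (r = 0.543, rho = 0.563, adjusted p = 0.00873 and 0.0124, and r = 0.522 without the 2 farthest) and Col6a2 did so in PFC (r = 0.659, rho = 0.591, adjusted p = 0.001 and 0.0092, and r = 0.583 without the 2 farthest).

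**Figure D3:**
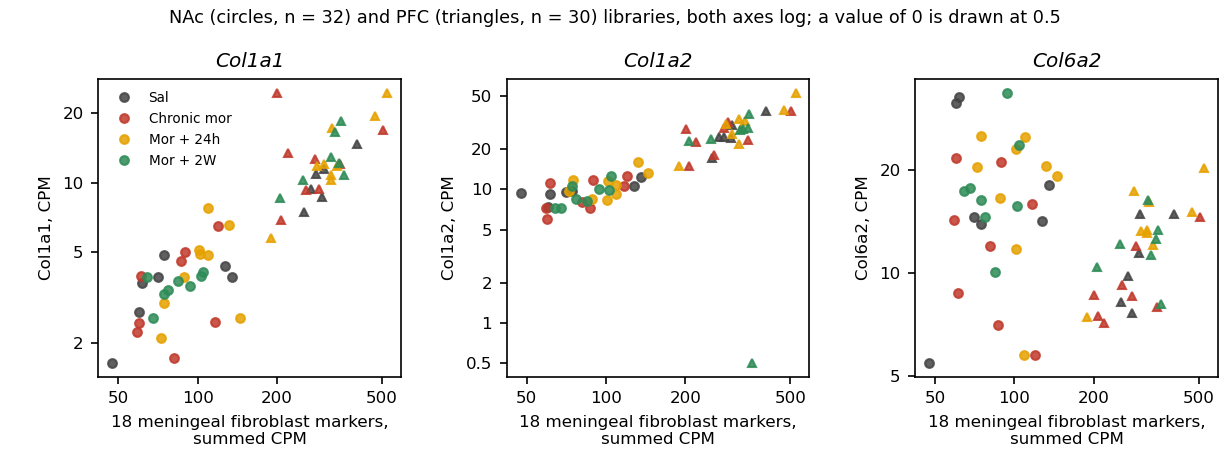
Type I collagen and Col6a2 against meningeal fibroblast markers. The horizontal axis is the summed CPM of 18 meningeal fibroblast markers and the vertical axis the CPM of the gene, both log axes, with NAc libraries as circles and PFC libraries as triangles. NAc libraries lie between 47.4 and 144.5 CPM of markers and PFC libraries between 189.1 and 523.4, and the genes rise with the markers within a region for Col1a1.

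The slope on the meningeal marker score was also fitted for every gene beside treatment and sex. No member was called by edgeR's quasi-likelihood test in either region, where 0.134% of all genes in PFC and 0.0707% in NAc were, and DESeq2 called 1 member in each (Col6a2 in PFC, Col1a1 in NAc), with 1.0% and 0.141% of all genes. An unadjusted p under 0.05 was found for 10 members in PFC, 9 of them with a positive slope, and for 4 in NAc, all positive, where 9.67% and 3.42% of all genes were past it. The median slope of the 43 members was 0.21 in PFC and 0.13 in NAc on the log2 scale per unit of the score, beside 0.032 and 0.00078 over all genes tested. In PFC the slope was 0.71 ± 0.19 (SE) for Col6a2 (adjusted p = 0.14), 1.01 ± 0.37 for Col1a2, 1.24 ± 0.47 for Col3a1 and 0.57 ± 0.27 for Col1a1. In NAc it was 0.70 ± 0.17 for Col1a1 (adjusted p = 0.23), 0.31 ± 0.10 for Col1a2 and not past an unadjusted p of 0.05 for Col3a1. Single libraries set these calls. Without PFC number 10, Col1a2 (0.79, adjusted p = 0.0141) and Col6a2 (0.67, adjusted p = 0.0443) were among 4 members called, and without PFC number 29, Col1a1 was called (1.13, adjusted p = 0.00538). Without NAc number 32, Col1a1 was called there (0.81, adjusted p = 0.0499).

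Striatal markers varied more between NAc punches than meningeal markers did. Col6a1 and Col6a2 varied with the striatal markers in one direction and Col25a1 in the other. The other beaded filament and transmembrane genes were not tested against them. The libraries numbered 25, 6, 31 and 23 held the lowest Col6a1 values, 13.5, 14.9, 16.9 and 19.4 CPM. Of these, numbers 6, 25 and 23 held 149.6, 182.5 and 541.7 CPM of striatal markers, whereas number 31 held 1859 CPM, near the NAc median of 2093, so its low Col6a1 went against the pattern. In the library numbered 28, which held the most striatal markers (5089 CPM), Col6a1 was at 123.5 CPM and Col25a1 at its lowest NAc value of 46.1 CPM. In the library numbered 6, which held the fewest (149.6 CPM), Col25a1 was at its highest value of 180.5 CPM. Over the 32 NAc libraries Col6a1 rose with the 6 striatal markers (r = 0.8, rho = 0.734, adjusted p = 0.0004 and 0.0012, and r = 0.65 without the 2 libraries farthest from the median). Col6a2 did so as well (r = 0.697, rho = 0.54, adjusted p = 0.0006 and 0.0154, and r = 0.511 without the 2 farthest). Col25a1 fell with them (r = -0.823, rho = -0.93, adjusted p = 0.0004 and 0.0012, and r = -0.838 without the 2 farthest). Col18a1 also fell with them (r = -0.529, rho = -0.519, adjusted p = 0.0152 and 0.0225, and r = -0.564 without the 2 farthest). For Col6a1 and Col25a1 the unadjusted p of r was 1e-05, the smallest that 100000 resamples can give. In PFC the relations of Col6a1 (r = 0.231, rho = 0.132, adjusted p = 0.404 and 0.672) and Col25a1 (r = -0.404, rho = -0.184, adjusted p = 0.145 and 0.498) with these markers, which are near their floor there, did not pass.

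**Figure D4:**
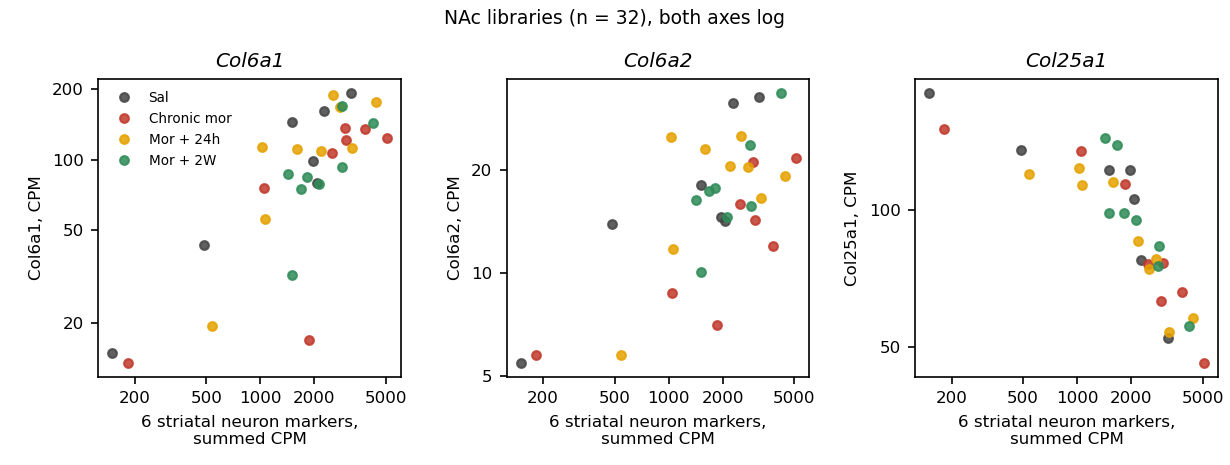
Type VI and type XXV collagen against striatal content in the 32 NAc libraries. The horizontal axis is the summed CPM of 6 striatal neuron markers and the vertical axis the CPM of the gene, both log axes, and each point is a library. Col6a1 ranges from 13.5 to 193.5 CPM and rises, and Col25a1 ranges from 180.5 to 46.1 CPM and falls, as the markers rise from 149.6 to 5089 CPM.

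Markers of oligodendrocyte precursors and of vessels also moved with members. In PFC the 4 precursor markers rose with Col4a1 (r = 0.638, rho = 0.584, adjusted p = 0.00227 and 0.0096, n = 30, and r = 0.468 without the 2 farthest), Col1a2 (r = 0.773, rho = 0.488, adjusted p = 0.00137 and 0.0423) and Col3a1 (r = 0.715, rho = 0.485, adjusted p = 0.013 and 0.0423). The relations of Col1a2 and Col3a1 were smaller without the library numbered 10, which held the fewest precursor markers (57.9 CPM) and 0 counts of both genes: r was then 0.48 and 0.336 (unadjusted permutation p = 0.00789 and 0.0742, n = 29), and without the 2 farthest libraries 0.384 and 0.23. With both coefficients, Col1a2 and Col3a1 passed with precursor markers in PFC and with meningeal markers in NAc. No gene passed in this way with precursor and meningeal markers in the same region. Of the precursor markers, Pdgfra is also made by fibroblasts and Cspg4 by mural cells, and their part in these relations was not tested. Col25a1 rose in NAc with the same markers (r = 0.722, rho = 0.684, adjusted p = 0.0004 and 0.002, n = 32, and r = 0.686 without the 2 farthest). Col4a1 rose in NAc with the endothelial and mural markers (r = 0.714, rho = 0.619, adjusted p = 0.00072 and 0.006, and r = 0.561 without the 2 farthest). Its relation in PFC did not pass (r = 0.189, rho = 0.213, adjusted p = 0.492 and 0.467). Of the 120 relations, 14 passed with both coefficients, 9 in NAc and 5 in PFC. They comprised 5 with meningeal, 4 with striatal, 4 with precursor and 1 with endothelial and mural markers. None of the 10 genes passed in this way with oligodendrocyte or choroid plexus markers. The members outside these 10 genes were not correlated with any marker list.

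Genes whose products assemble into one trimer, and the type I and III genes Col1a2 and Col3a1, which do not, were compared as pairs in 10 relations adjusted together. The head-to-head genes Col4a1 and Col4a2 varied together in PFC (r = 0.798, rho = 0.758, adjusted p = 2.5e-05 and 3.33e-05, n = 30) and in NAc (r = 0.778, rho = 0.85, with the same adjusted p, n = 32), and r was 0.718 and 0.826 without the 2 farthest libraries. Col6a1 and Col6a2 did so in NAc (r = 0.888, rho = 0.831, adjusted p = 2.5e-05 and 3.33e-05, and r = 0.835 without the 2 farthest). In PFC their correlation did not pass (r = 0.31, rho = 0.294, adjusted p = 0.106 and 0.127), and r was 0.518 without the libraries that stood apart. The type I pair Col1a1 and Col1a2 reached r = 0.249 and rho = 0.663 in PFC (adjusted p = 0.19 and 0.00035), with r = 0.788 without the library numbered 10, and r = 0.386 and rho = 0.378 in NAc (adjusted p = 0.0402 and 0.0428, and r = 0.382 without the 2 farthest). Col1a2 and Col3a1 varied together in PFC (r = 0.879, rho = 0.575, adjusted p = 2.5e-05 and 0.00155, and r = 0.617 without the 2 farthest) and in NAc (r = 0.573, rho = 0.589, adjusted p = 0.000883 and 0.001, and r = 0.528 without the 2 farthest). The PFC correlation of the short-chain genes Col8a1 and Col8a2 (r = 0.85, rho = 0.455, adjusted p = 0.00026 and 0.0159) fell to 0.296 without the 2 farthest libraries.

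Some libraries held the highest value of several members. PFC number 31, with the choroid plexus markers, held the highest PFC values of Col8a1 (31.9 CPM, median 4.77), Col8a2 (27.5 CPM, median 2.68) and Col9a3 (42.4 CPM, median 11.6), and the highest of 7 members in all. PFC number 22 held the highest PFC value of 10 members, among them Col5a1 (34.5 CPM) and Col6a1 (26.5 CPM), with 323.9 CPM of meningeal markers, near the PFC median of 301.0 CPM. That library also had the most genes with a count in PFC, 21142, and 7.46% of reads outside genes. NAc number 24, with the cortical neuron gene, held the highest NAc value of 10 members, among them Col23a1, a transmembrane collagen (29.02 CPM, median 5.81), and Col5a1 (7.81 CPM). The part of these markers in the members' values was not tested. The share of all genes highest in these libraries was not computed, so the counts of members are not a result about collagens.

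The stage comparisons asked whether collagen RNA differed during morphine drinking or after it. In PFC, no member was called in any of the 3 contrasts with saline by edgeR's quasi-likelihood test, where 0.417% of all genes were called for Chronic mor, 0.0779% for Mor + 24h and 0.00557% for Mor + 2W. At an unadjusted p under 0.05 there were 1, 2 and 1 members (7.91%, 3.03% and 5.02% of all genes), and DESeq2 called 1, 0 and 0 (0.974%, 0.256% and 0.0668% of all genes). The median log2 fold change of the 43 members was 0.09, 0.06 and -0.04, beside 0.01, 0.01 and -0.05 over all genes tested. All 3 contrasts use the same saline libraries.

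Col6a5, a type VI chain of low level, was the PFC member of smallest p. It had counts in 1 of 6 Sal libraries (0.125 CPM), and the Chronic mor libraries measured 0.0326, 1.64 and 5.71 CPM (lowest, median, highest). Chronic mor numbers 25, 28 and 31 were at 0.034, 0.13 and 0.033 CPM, and the others measured 1.53 to 5.71 CPM. In the PFC fit the gene passed the filter on low counts only through morphine libraries. Its fold change and p-values there are therefore not read as an effect of treatment. The ranges overlapped at the low end, and the fitted log2 fold change was 7.13 ± 1.90 (adjusted p = 0.13 by edgeR, 0.0334 by DESeq2), a size that depends on the prior count because most saline libraries were at 0. For Col18a1, the Mor + 2W libraries measured 3.49, 5.48 and 62.6 CPM and the Sal libraries 3.87, 4.02 and 5.47 CPM. The high value belonged to the library numbered 10, and the log2 fold change was 1.36 ± 0.47 (adjusted p = 0.86). Leaving single libraries out moved it between 0.18 and 1.63.

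In NAc under Chronic mor, most members lay below saline, but 1 of 43 was called, where 1.69% of all genes were. Of the 43 members, 36 (83.7%) had a negative fold change, against 51.8% of all genes tested, and the median log2 fold change was -0.30 against -0.01. At an unadjusted p under 0.05 there were 10 members, all lower, where 15.1% of all genes were past it in either direction. The median was negative in 9 of 9 classes, between -0.74 for the anchoring fibril gene Col7a1 and -0.10 for the pair of no listed class. The classes hold 1 to 11 genes measured in the same libraries, so they do not count as separate results. The summed CPM of the members was 397.2, 432.7 and 506.2 in Sal and 309.1, 365.0 and 426.4 in Chronic mor, so the upper Chronic mor libraries overlapped the lower saline ones. Leaving out single libraries gave 32 to 39 members below saline, and leaving out the libraries that stood apart gave 33.

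The member called was Col11a2, a fibrillar chain of type XI collagen. Its NAc libraries measured 16.03, 18.96 and 26.12 CPM in Sal (7 libraries) and 12.69, 15.68 and 17.42 CPM in Chronic mor (8 libraries). The groups overlapped between 16.03 and 17.42 CPM. It fell by 0.45 on the log2 scale (SE 0.11, adjusted p = 0.0373). The call was lost without any 1 of 8 libraries (Sal 1, 3, 5 and 7, Chronic mor 26, 27, 30 and 32), with adjusted p from 0.0535 to 0.147, and without the libraries that stood apart (-0.40, adjusted p = 0.153).

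The next members by p did not pass. Col16a1, a FACIT, measured 11.83, 15.04 and 17.25 CPM in Sal and 5.98, 9.60 and 13.1 CPM in Chronic mor (log2 fold change -0.62 ± 0.17, adjusted p = 0.0544). Col4a1 measured 21.2, 25.4 and 31.7 CPM in Sal and 11.7, 18.4 and 24.6 CPM in Chronic mor (-0.50 ± 0.14, adjusted p = 0.0623). Col4a2 measured 32.84, 35.99 and 40.7 CPM in Sal and 25.62, 28.08 and 35.99 CPM in Chronic mor (-0.29 ± 0.09, adjusted p = 0.0924). For each of these genes the median Chronic mor library lay under the lowest saline library, and the ranges overlapped. DESeq2 called Col16a1 and Col4a1 beside Col11a2, and 3.74% of all genes. The type I and III genes stood elsewhere, with log2 fold changes of 0.05 for Col1a1, -0.02 for Col1a2 and 0.09 for Col3a1. Col6a1 (-0.22), Col6a2 (-0.49) and Col18a1 (-0.55) were not called.

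Cell type markers moved as well in this contrast, none of them past the test. The 9 mural markers had a median log2 fold change of -0.29 (7 of 9 lower), and the 10 endothelial markers one of -0.11 (7 of 10 lower). Summed mural markers were 116.4, 135.1 and 161.5 CPM in Sal and 59.3, 128.1 and 166.3 CPM in Chronic mor. The 18 meningeal markers had a median of 0.12 (4 of 18 lower) and the 6 striatal markers one of 0.55 (6 of 6 higher), with summed striatal markers of 149.6, 1959 and 3203 CPM in Sal and 182.5, 2720 and 5089 CPM in Chronic mor. With the endothelial and mural score as a covariate, 2 members were called (Col11a2 and Col16a1, where 2.01% of all genes were), 35 lay below saline and their median was -0.39. Without the 2 NAc libraries low in striatal markers, 38 lay below saline with a median of -0.38, and 2 were called (Col11a2 and Col5a3, where 1.46% of all genes were).

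After drinking, NAc differences from the same saline libraries were smaller. For Mor + 24h, 21 of 43 members lay below saline (median log2 fold change 0.01) and none was called by edgeR or DESeq2, where 0.163% and 0.908% of all genes were. Of the 43, 2 had an unadjusted p under 0.05, as 12% of all genes did. Under Mor + 2W, 35 of 43 lay below saline (81.4%, against 49.7% of all genes), with a median of -0.18, and none was called by edgeR or DESeq2, where 0.00544% and 0.223% of all genes were. Of the 43, 3 had an unadjusted p under 0.05, all lower, as 6.36% of all genes did in either direction. Col4a1 measured 21.99, 24.98 and 27.48 CPM in Mor + 24h and 16.8, 21.7 and 33.3 CPM in Mor + 2W, and both ranges overlapped that of saline. Col11a2 measured 11.8, 19.8 and 24.0 CPM in Mor + 24h and 18.4, 21.6 and 28.5 CPM in Mor + 2W.

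**Figure D5:**
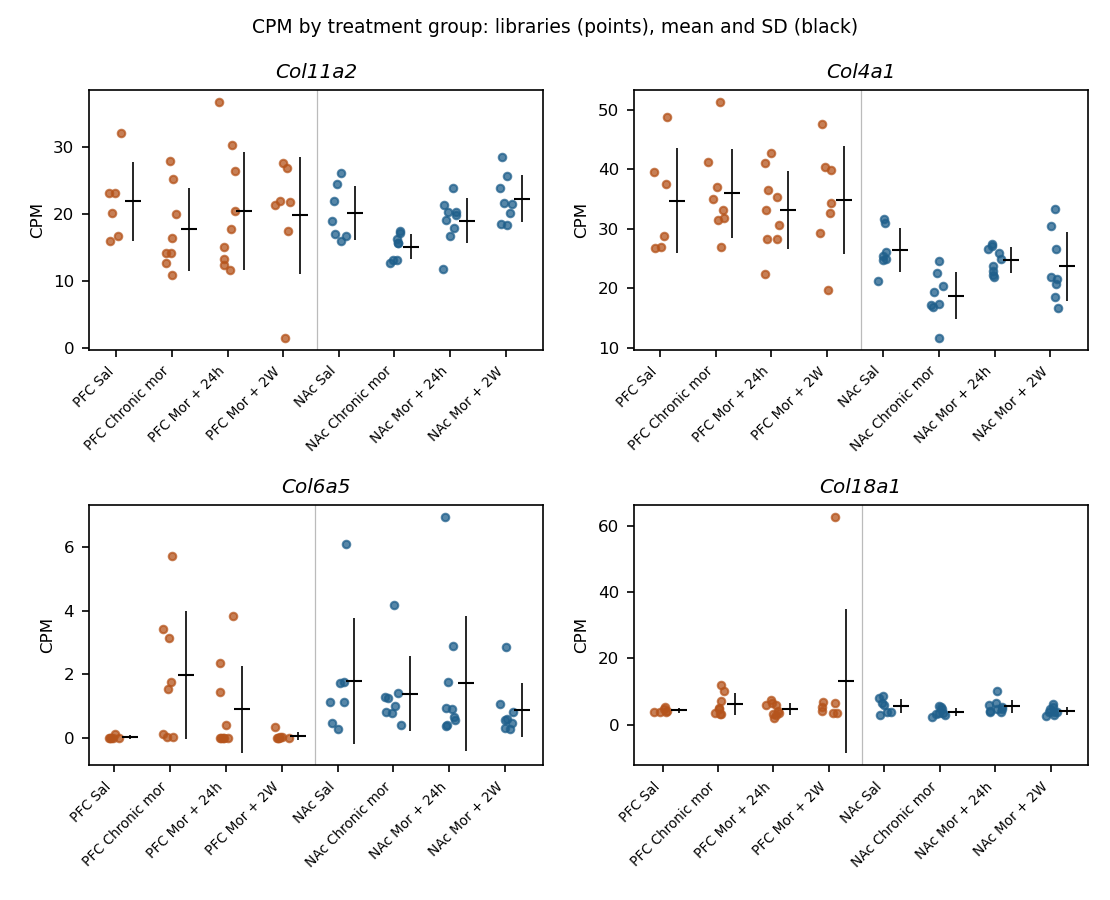
CPM of collagen genes by region and treatment. Each panel is 1 gene, points are libraries, and the black mark and bar are the mean and SD of the group. In NAc the Chronic mor libraries of Col4a1 (11.7 to 24.6 CPM) lie low against saline (21.2 to 31.7 CPM), and the PFC library at 62.6 CPM of Col18a1 is number 10.

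Whether the stage effects differed between the regions was tested by an interaction over the 3 stages. No member was called by edgeR, where 0.0363% of all genes were, and DESeq2 called 1, Col6a5, with 0.151% of all genes. The highest PFC saline library of Col6a5 was at 0.125 CPM and the others were at 0. An unadjusted p under 0.05 was found for 4 members, Col6a5, Col18a1, Col22a1 and Col4a2, where 4.71% of all genes were past it. The decrease of Col11a2 in NAc and its missing call in PFC are thus not shown to differ.

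Genes that make, cut, bind or accompany collagen were read from the same fits. Of the 54 tested genes of this list between the regions, 36 were called, 16 higher and 20 lower in NAc, a share near the 66.2% of all genes. Among the genes lower in NAc were Pcolce, which enhances cleavage of procollagen by its C-proteinase (log2 fold change -1.73 ± 0.15), Ddr2, a receptor for fibrillar collagen (-1.95 ± 0.16), and Fap, a surface protease of fibroblasts (-3.08 ± 0.28). Adamts3, a procollagen N-proteinase (2.04 ± 0.16), and Lamb1, a laminin chain of basement membranes (1.93 ± 0.16), were higher. With the meningeal score as a covariate, Pcolce turned to 0.37 (adjusted p = 0.43).

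On the meningeal score itself, Pcolce was the 1 gene of the list called in both regions, with slopes of 1.59 ± 0.24 in PFC (adjusted p = 0.00114) and 0.72 ± 0.14 in NAc (adjusted p = 0.0382). The PFC call held without each single library, and the NAc call was lost in 21 of 32 such fits. In the 6 stage contrasts none of the list was called. Under Chronic mor in NAc, 36 of 53 lay below saline, where 51.8% of all genes did, with a median log2 fold change of -0.08 against -0.01. An unadjusted p under 0.05 was found for 10 of the 53, 9 of them lower, and for 15.1% of all genes.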

How the data were processed

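RNA of mouse PFC and NAc punches was analysed from 1 deposited table of raw counts, whole numbers of reads the authors assigned to each gene in each library. The submitters' processing notes name FastQC, cutadapt, Trimmomatic, STAR, HISAT2 and RSEM and the builds GRCm38 and Rnor_6.0, without roles, so which of them made the mouse counts, and whether counting used strand, is not given in the sources used here. Rows that name no gene were left out (median shares 5.43% outside genes, 0.832% ambiguous, 0.566% unaligned and 14.7% aligned more than once), and the rat table was not used here. Multi-mapped reads stay out of such counts, which lowers genes with near copies.

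Symbols, exon lengths and coordinates came from GENCODE M21 (45143 of 46078 identifiers matched, the others holding 0.064% of counts), as did the coding sequences, in GRCm38. Samples were grouped by the labels of region, treatment and sex. Genes were filtered with filterByExpr (minimum count 10), scaled by TMM and tested with edgeR 4.0.16 (quasi-likelihood, robust) in R 4.3.3, with cell means of treatment by sex, contrasts averaged over sexes, and Benjamini-Hochberg adjustment over all genes tested. A gene was called at an adjusted p under 0.05. PFC and NAc were fitted apart for stage contrasts and slopes, and together for the region and interaction tests. CPM uses the reads counted to genes times the TMM factor, which was 0.885 to 0.999 in PFC and 0.980 to 1.11 in NAc libraries. The Xist value is the exception and uses no factor. Log2 CPM uses a prior count of 2, and RPKM divides CPM by the union of exons. Correlations were tested with 100000 permutations, two-sided (SciPy 1.17.1). A stage contrast, a slope and the region contrast were tested on simulated counts with known changes.

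Members named are Col1a1, Col1a2, Col3a1, Col4a1, Col4a2, Col6a1, Col6a2 and Col18a1, members called in a stage contrast, the 5 highest and 5 lowest called members of the region contrast with a mean log2 CPM of at least 0, the 5 highest by RPKM in each region, and outlying values. Others (Col4a4, Col4a6, Col5a3, Col6a5, Col7a1, Col8a2, Col10a1, Col16a1, Col22a1, Col23a1, Col26a1) were named after their values were seen. The members and all gene lists were chosen with earlier results of these data known. Alternatives were size factors by the median of ratios, no filter on low counts, DESeq2 1.42.0, marker scores as covariates, a replicate block, each library left out in turn, and, added after seeing the data, sets of libraries left out.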

Additional observations from a re-analysis of the deposited data

Results flagged for a closer look

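A library far from the others of its group was found for 4 of the 72 group levels checked (9 genes in 8 groups), by Dixon's test on CPM, and chance flags about 1 group in 20. In PFC Mor + 2W, the library numbered 10 accounted for 3 of these. It held 0.0 CPM of Col1a2, where the others measured 23.02 to 36.84 CPM. For Col11a2 it held 1.55 CPM, where the others measured 17.5 to 27.6 CPM. Its 62.6 CPM of Col18a1 lay far above the 3.49 to 7.02 CPM of the others. That library had the fewest counts of the 62, 5182601, and 31 members at 0. In NAc Mor + 24h, the library numbered 24 held 10.2 CPM of Col18a1, where the others measured 3.91 to 6.65 CPM, and it also held 594 CPM of Slc17a7.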

How the results depend on the processing

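For NAc Chronic mor the count of 1 member called moved with most choices: it was 0 without a filter on low counts, 0 without the libraries that stood apart, 0 without number 27, 2 with the endothelial and mural score as a covariate, 2 without the NAc libraries low in striatal markers and 3 with DESeq2, and 0 to 3 with single libraries left out. DESeq2 called 1 member where edgeR called 0 in PFC Chronic mor, in the interaction and in the slope in each region. The PFC slope gave 1 called member with the vascular score as a covariate, 2 without the libraries that stood apart and 0 to 4 with single libraries left out, and the NAc slope gave 0 to 1. The count of 31 between the regions was 9 with the meningeal score and 18 with the vascular score as a covariate, and 29 to 33 with single libraries left out. With the meningeal score, Col3a1 (0.65), Col8a1 (0.71) and Pcolce (0.37) turned in sign between the regions, and the PFC correlation of Col1a2 with the meningeal markers turned to -0.0328 without the 2 farthest libraries. The cause of these changes was not tested, apart from the library numbered 10 at 0 counts of Col1a2. For the 35 differences and slopes of single genes, 254 alternative values kept their direction and side of the threshold, 20 were no longer called, 7 became called and those 3 turned in sign, with single libraries kept in.

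The replicate numbers are shared between regions, and the labels do not say that a number is an animal. The deviations of same-numbered libraries correlated with a median of 0.0679 (other pairs -0.0167). Among the 3 to 5 NAc libraries of the same treatment and sex, 23 of 30 PFC libraries correlated best with their own number. Both libraries numbered 27 also carried the same mismatch of sex. These values hint at shared animals. A correlation over 0.1 was reached by 5 of 30 pairs. The main fits did not treat same-numbered libraries as pairs, since the labels do not say that a number is an animal. If it is, the standard errors and p-values of the region contrast and the interaction ignore that pairing. With the replicate block 29 members were called between the regions, 28 of them among the 31, and 0 in the interaction. Depth limits the 13 members in each region with a median under 1 CPM, for which small differences could not be detected.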
